A study of Mus musculus with 42 samples.

Results

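Irradiated thymus of mice carrying the AD allele of Trp53 was compared with irradiated thymus of p53-null mice, gene by gene. The comparison used every irradiated thymus library of these 2 genotypes, 4 AD and 4 Null, which is 8 of the 42 libraries of the series. The series measured RNA by sequencing in thymus, intestine, liver and pancreas of mice with germline Trp53 alterations, with or without irradiation, and its title names p53 dimers. AD mice were labelled p53 AD/-, so they carried 1 AD allele over 1 null allele, and Null mice were labelled p53-null. Both groups therefore lacked a wild-type allele. Irradiated thymus of 4 RP mice (p53 RP/-) and 4 Het mice (p53 +/-) served as side groups. All mice were 4 weeks old and of 50% BALB/C and 50% C57BL6 background, and irradiated animals were sacrificed 4 h after exposure. The alterations were in the germline. The labels gave neither sex nor radiation dose, and they did not spell out AD or RP. A name such as AD-630 joins the genotype to the number of the animal, and p-values measure the spread between these animals.

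The p53 protein is a transcription factor that binds DNA as a tetramer, and DNA damage stabilises it. In thymocytes, which are among the most radiation-sensitive cells of the body, it then raises genes of growth arrest such as Cdkn1a and of cell death such as Bbc3, and it raises its own inhibitor Mdm2. Proteins that assemble only as far as dimers bind many p53 sites poorly. The comparison of AD with Null asks which transcripts differ when the AD allele is the only one present.

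A p53 site is made of paired half-sites, often with a CATG core, and Cdkn1a is the textbook carrier of one. The stretch below lies just before a start site of it in RefSeq, on the forward strand at chr17:29090908-29090967 of GRCm38.p6, in the 5′ flank of that start site. It is shown because Cdkn1a is the gene by which p53 activity is most often read, and its level is described further down. Capitals mark 2 CATG cores with 6 bases between them, and 34 bases separate the second core from the start site.
Cdkn1a: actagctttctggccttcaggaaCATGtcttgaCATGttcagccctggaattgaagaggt
The motif searched was CATGNNNNNNCATG, which reads the same on both strands. It was present in 234 of 32851 RefSeq promoter windows (0.712%). By gene, it was in a window of 225 of 27025 symbols (0.833%), and in that of 1 of the 62 p53 list genes that had one. Sites with other cores, another spacing or a place outside these windows were not searched, so a gene without a match may still have a p53 site. A match is a run of letters and was not shown to be bound here.

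The 8 libraries held 27823465 to 33331829 counts. Pairs of libraries within a group differed by more than sampling noise, with a chi-square per degree of freedom of 4.35 to 37.9 over 12 pairs, so none was a copy of another. Each group held 2 libraries with high Xist and 2 with high Ddx3y, the marks of female and male tissue. Xist had 30864 to 41168 counts in AD-630, AD-633, Null-593 and Null-604 and 98 to 1184 in the other 4. Markers of thymocytes were abundant in every library. In CPM, counts scaled to library size, their 12 genes summed to 5599 to 5807 in AD and 5155 to 5539 in Null, a small shift without overlap.

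**Figure D1:**
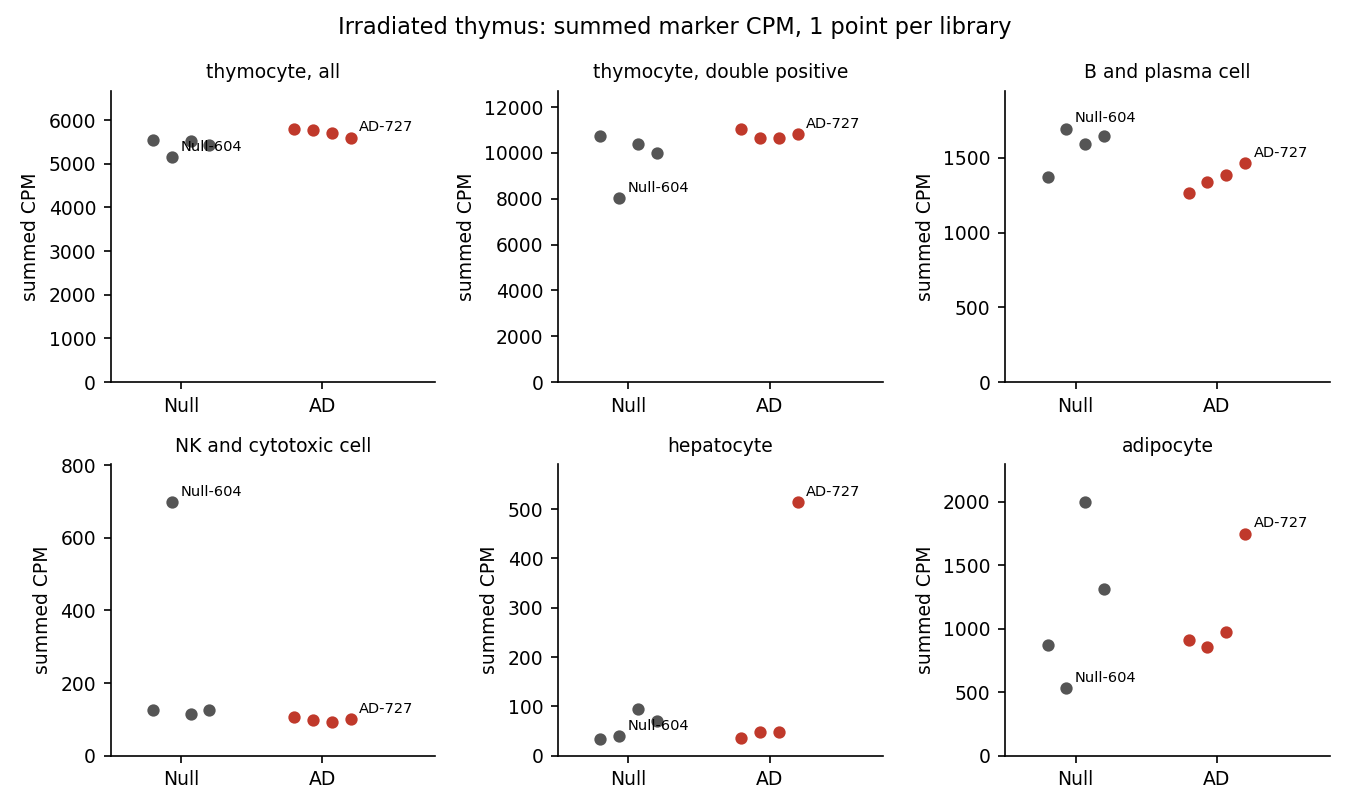
Summed CPM of 6 marker lists (y axis) in each irradiated Null and AD thymus library (points, grouped on the x axis). AD-727 stands at 514 for hepatocyte markers and Null-604 at 698 for cytotoxic cell markers, each far from the other libraries of its group.

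Single libraries stood apart in markers of other tissues or cells. In AD-727 the 26 hepatocyte markers summed to 514 CPM, against 35.5 to 48.3 in the other AD libraries and 33.7 to 94.2 in Null. Alb, serum albumin, stood at 178 CPM in AD-727 and at 0.507 to 3.82 in the other AD libraries. In Null-604 the 16 markers of natural killer and cytotoxic cells summed to 698 CPM, against 114 to 126 in the other Null libraries and 91.9 to 107 in AD. Most of it was 1 gene, the protease gene Gzma, at 612 CPM in Null-604 and 39.5 to 58.1 in the other Null libraries. The other 15 markers summed to 86.6 CPM in Null-604, 66.4 to 76.5 in the other Null libraries and 62.3 to 70.4 in AD. Null-604 also had the lowest double-positive thymocyte sum of the 8, 8037 CPM against 9993 to 11062 in the rest. The calls over all genes and the medians of the lists below were therefore also taken without these libraries. Fewer cells of a type and less RNA per cell cannot be told apart in whole tissue.

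Trp53 itself was higher in AD. It stood at 32.9, 34.8, 38.7 and 35.3 CPM in AD-630, AD-633, AD-726 and AD-727, and at 18.9, 21.1, 19.3 and 20.4 CPM in Null-593, Null-604, Null-856 and Null-857. The groups did not overlap, and transcript was still present in every Null library. The log2 difference was 0.83 ± 0.07 (standard error, as after every ± below; edgeR adjusted p = 2.48e-06). Trp53 lies on chromosome 11 from 69580359 to 69591873 of GRCm38. Wrap53, which starts next to it on the other strand, differed by 0.05 (95% interval -0.10 to 0.20). The strand setting of the counting is not given in the sources used here, so reads of such neighbours may be shared.

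Across the genome very little else was called. Of 22206 genes tested, 6 had an adjusted p under 0.05 (0.027%), 5 higher (0.0225%) and 1 lower (0.0045%) in AD, and each of them lay within 10 Mb of Trp53. Over all genes 924 were higher (4.16%) and 850 lower (3.83%) at an unadjusted p under 0.05, and 1174 had libraries that did not overlap between AD and Null (5.29%), 632 with AD higher (2.85%) and 542 with AD lower (2.44%). The 10 Mb window held 422 tested genes and all 6 calls (1.42%). In it 55 genes had an unadjusted p under 0.05 (13%), and 36 had AD and Null libraries that did not overlap (8.53%). Outside it, among 21784 genes, edgeR called 0, while 1719 had an unadjusted p under 0.05 (7.89%), 887 higher (4.07%) and 832 lower (3.82%), and 1138 did not overlap (5.22%). DESeq2 called 97 of 17447 genes (0.556%), 86 of them outside the window. The excess near Trp53 did not fade evenly. The share at an unadjusted p under 0.05 was 12.9% within 2 Mb, 10% from 2 to 5 Mb and 13.9% from 5 to 10 Mb. It was 6.13% from 10 to 20 Mb, 9.42% from 20 to 40 Mb and 6.81% beyond 40 Mb, against 7.91% on other chromosomes. The autosomes and X ran from 6.39% (chromosome 3) to 11.3% (X).

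**Figure D2:**
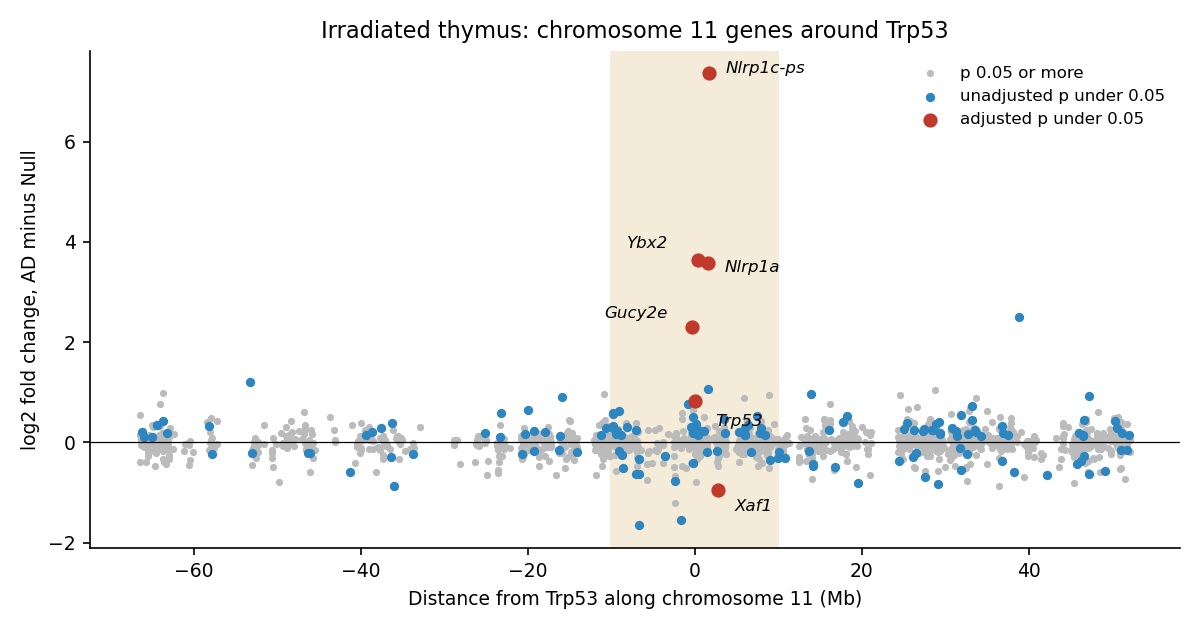
Log2 fold change of AD minus Null (y axis) for each tested chromosome 11 gene against its distance from Trp53 in Mb (x axis), with the 10 Mb window shaded. The 6 called genes (red) sit inside the window; the fitted value of Nlrp1c-ps, 7.36, depends on the prior count because Null held 1 read of it.

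The steepest differences near Trp53 were in 2 genes of the Nlrp1 cluster and in Ybx2. Nlrp1c-ps, a transcribed relative of the inflammasome sensors (chromosome 11, 71242430 to 71285232), had 47 to 71 counts in each AD library. In Null it had 1 count in Null-604 and 0 in the other 3 libraries. Over the groups that was 243 counts against 1, a ratio of 247 with an exact 95% interval of 44.0 to 9805 that covers counting error only (adjusted p = 1.03e-07). Nlrp1a, a sensor that activates caspase-1 (71092236 to 71144704), stood at 1.28, 1.14, 0.881 and 1.09 CPM in AD and at 0.162, 0.0333, 0.121 and 0.0333 CPM in Null. Every AD library was above every Null library (3.57 ± 0.38, adjusted p = 0.000111). Nlrp1b, the third gene of the cluster, was higher without overlap but not called (1.07 ± 0.22, adjusted p = 0.149). The 3 genes are close copies, so counts may have been split among them.

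Ybx2, which encodes an RNA-binding protein of germ cells (69935796 to 69941605), stood at 11.7, 15.4, 12.4 and 14.6 CPM in AD and at 0.615, 0.799, 1.58 and 1.33 CPM in Null. The lowest AD library was far above the highest Null library (3.63 ± 0.35, adjusted p = 0.000111). Gucy2e, a guanylate cyclase gene of photoreceptors (69218117 to 69237036), was faint in both groups, with 18 to 32 counts in each AD library and 2 to 8 in each Null library (2.31 ± 0.37, adjusted p = 0.0304). Xaf1, an interferon-induced partner of the caspase inhibitor XIAP (72301629 to 72313733), was the 1 called gene that was lower in AD. It stood at 16.7, 17.6, 14.1 and 14.1 CPM in AD and at 28.7, 28, 31.2 and 33.1 CPM in Null (-0.95 ± 0.15, adjusted p = 0.0191). Its groups did not overlap. The call of Xaf1 was lost when 1 of 5 libraries was left out, namely Null-604, Null-856, Null-857, AD-726 or AD-727 (-0.91 to -0.99, adjusted p = 0.0505 to 0.156). That of Gucy2e was lost without any 1 of the same set apart from Null-857 (2.06 to 2.31, adjusted p = 0.121 to 0.176). Xaf1 was the only called gene among 38 tested interferon-stimulated genes, whose median difference was -0.08 against -0.01 over all genes.

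**Figure D3:**
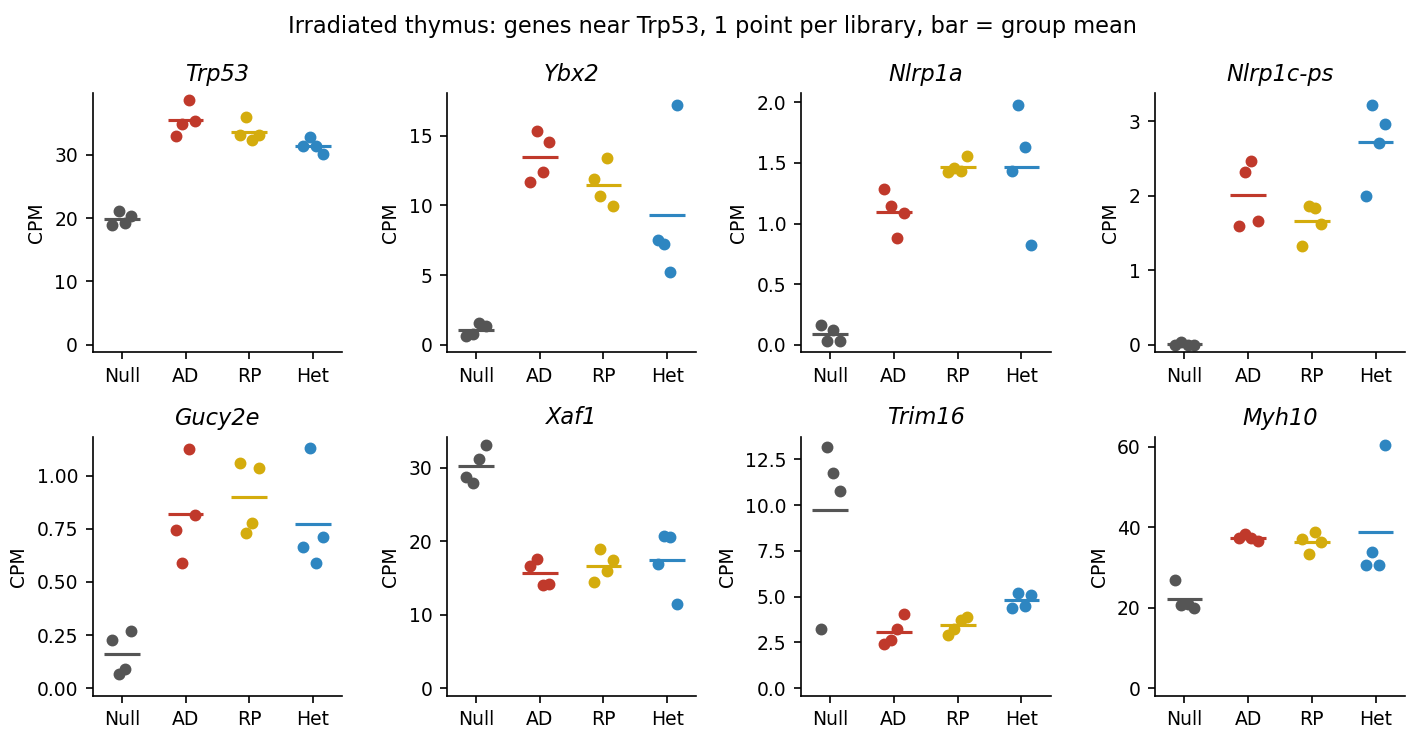
CPM (y axis) of 8 genes near Trp53 in each irradiated thymus library (points) by genotype, with the group mean as a bar. RP and Het libraries sit with AD rather than with Null for Trp53, Ybx2, Nlrp1a, Nlrp1c-ps, Gucy2e and Xaf1, and Null-593 sits at the AD level for Trim16.

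The same 6 genes differed from Null in the side groups too, which share the 4 Null libraries with the AD comparison. Ybx2 differed from Null by 3.63 in AD, 3.40 in RP and 3.09 in Het, and Xaf1 by -0.95, -0.86 and -0.80. All 6 had an adjusted p under 0.05 in RP, where 7 genes in all were called (0.0315%), and in Het, where 19.2% of genes were. Unirradiated thymus of other AD and Null animals gave a look that shares no library: all 6 had the same sign there and 4 of them were called, in a comparison that called 15 of 22173 genes (0.0676%). Unirradiated Ybx2 differed by 3.13 and Nlrp1a by 3.42.

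Other neighbours fell short of a call. The ubiquitin ligase gene Trim16 stood at 2.43, 2.64, 3.24 and 4.04 CPM in AD. In Null it stood at 13.2, 11.8 and 10.8 CPM in Null-604, Null-856 and Null-857 but at 3.24 in Null-593. Null-593 thus lay inside the AD range, and the difference was -1.65 ± 0.30 (adjusted p = 0.0858). The next gene, Fbxw10, showed the same library apart, with Null-593 at 7.99 CPM, the other Null libraries at 14.4 to 18.4 and AD at 8.55 to 9.87. Without Null-593 both were called, at -1.94 and -0.83. The nonmuscle myosin gene Myh10 stood at 36.6 to 38.3 CPM in AD and 19.8 to 27.0 in Null (0.76 ± 0.17, adjusted p = 0.219), and the histone demethylase gene Kdm6b at 38.3 to 59.1 and 30.7 to 37.4 (0.50 ± 0.11, adjusted p = 0.212). Both were without overlap. The 15 genes with the lowest p in the window include the 6 called ones. All 15 had the same sign in unirradiated thymus, as 55.8% of all tested genes did. Of the 15, 7 were called there, 4 of them from the 6 described above. Variants near Trp53 tend to be inherited with the altered allele, and allele and neighbourhood cannot be told apart in this design.

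Genes of the p53 program lay close to the Null level in AD, and edgeR called none of them. Cdkn1a, the cell cycle inhibitor whose site is printed above, stood at 3.48, 4.34, 4.87 and 4.91 CPM in AD and at 3.50, 3.36, 3.31 and 4.2 CPM in Null. The groups overlapped, because AD-630 lay within the Null range. The difference was 0.29 ± 0.12 (95% interval 0.05 to 0.54, adjusted p = 0.542), set beside 3.55 for Het and 0.20 for RP against the same Null libraries. The upper bound of the AD difference was thus far below the Het value.

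Death genes gave the same picture with more spread. Bbc3, which encodes the BH3-only protein PUMA, stood at 3.55, 6.63, 7.02 and 7.09 CPM in AD and at 3.50, 4.66, 4.37 and 5.10 CPM in Null. AD-630 was at the bottom of the Null range and the other 3 AD libraries were above all Null libraries (0.46 ± 0.18, adjusted p = 0.542). Without AD-630 the difference was 0.65. Bbc3 differed from the same Null libraries by 0.49 in RP and 4.39 in Het. The pore-forming effector gene Bax stood at 11.5 to 12 CPM in AD and 10.5 to 14.6 in Null, a difference of -0.11 (95% interval -0.30 to 0.08) beside 2.6 in Het. Pmaip1, which encodes the BH3-only protein NOXA, was lower in each AD library, at 7.51 to 9.04 CPM against 9.81 to 10.9, without a call (-0.27 ± 0.10, adjusted p = 0.509). The death receptor gene Eda2r differed by -0.66 (95% interval -1.22 to -0.10, adjusted p = 0.551) beside 3.68 in Het.

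Feedback and arrest genes had medians near 0. Single genes ran from -0.37 to 0.29 in the arrest and repair list and from -0.36 to 0.16 in the feedback list. Mdm2, the ubiquitin ligase gene that p53 induces against itself, stood at 142 to 146 CPM in AD and 137 to 143 in Null, a difference of 0.03 (95% interval -0.08 to 0.14). The cyclin gene Ccng1 differed by -0.01 (95% interval -0.18 to 0.16) beside 2.81 in Het, and the kinase gene Plk2 by -0.24 (95% interval -0.49 to 0.01) beside 3.83. Among the p53 lists, 26 arrest and repair, 21 apoptosis, 17 metabolism and 13 feedback genes were tested and edgeR called 0 of them in AD; some genes stood in more than 1 list. Together these were 75 genes, of which 7 had an unadjusted p under 0.05, 4 higher and 3 lower, set against 7.99% of all genes. DESeq2 called 1 of the 75, Ndrg1, a stress-induced gene (0.31 ± 0.07 in edgeR, adjusted p = 0.219 in edgeR and 0.0152 in DESeq2). Median differences were -0.03, -0.10, -0.02 and -0.01 for the 4 lists, beside 0.67, 1.20, 0.29 and 0.42 in Het and -0.01 over all genes. In RP the 4 medians were -0.010, -0.014, -0.008 and 0.002. Over the 47 of the 75 genes that were called higher in Het, a choice made on the shared Null libraries, the AD median was -0.01.

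**Figure D4:**
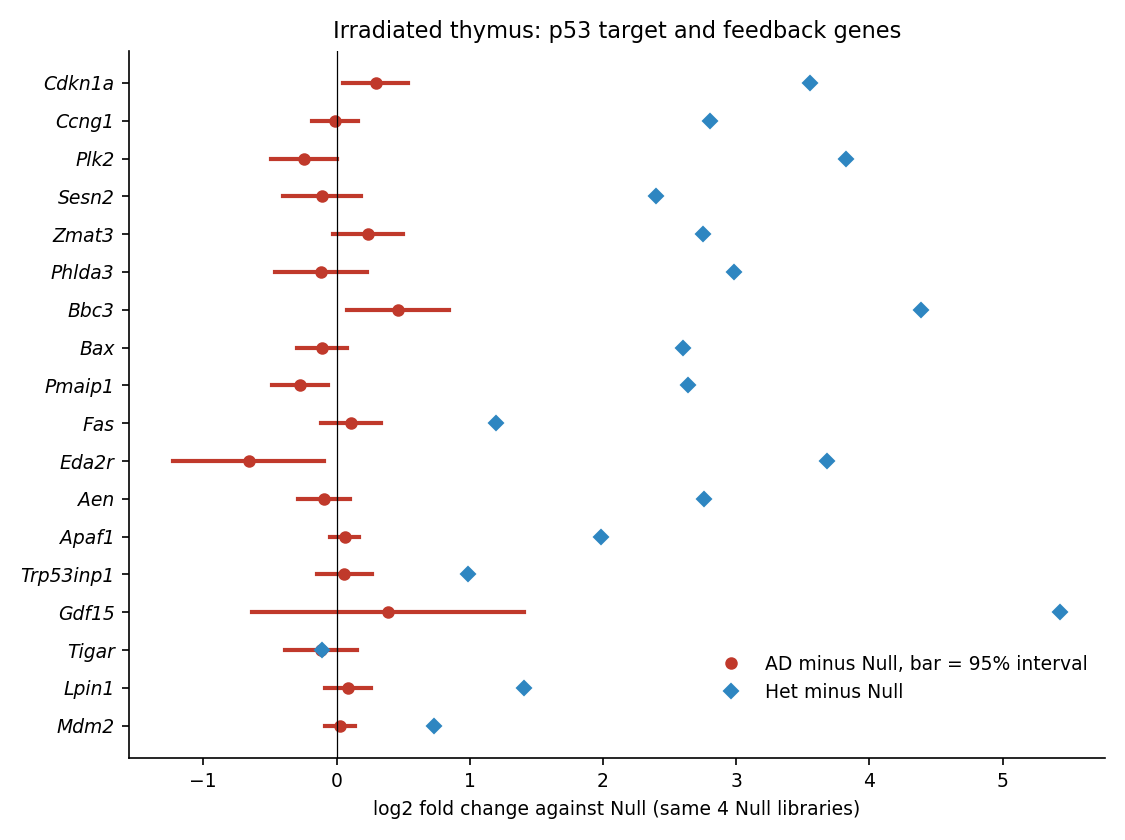
Log2 fold change against the same 4 Null libraries (x axis) for 18 p53 target and feedback genes (y axis); red points with bars are AD minus Null with 95% intervals and blue diamonds are Het minus Null. Red points lie between -0.66 for Eda2r and 0.46 for Bbc3.

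Away from Trp53 edgeR called no gene, and the genes with the lowest p are described here as they stand, 11 higher and 12 lower in AD. By the rule that chose them they had no overlap between groups, so the direction of their differences was fixed by the choice. DESeq2 called all 23 of them, with adjusted p from 8.43e-06 (Foxn3) to 0.0143 (Ikzf3) for the higher genes and from 0.000915 (Avil) to 0.0466 (Ptges3) for the lower ones. The genes had been chosen for low p in edgeR on the same counts, so these DESeq2 calls are no independent support. H2-Q1, a class I histocompatibility gene (chromosome 17, 35320405 to 35325099), had the lowest p of the 11 higher genes. It stood at 22.6, 40.6, 37.5 and 35.2 CPM in AD-630, AD-633, AD-726 and AD-727 and at 17.8 to 19.6 CPM in Null. AD-630 was closest to the Null libraries, and the other 3 AD libraries were far above (0.88 ± 0.15, adjusted p = 0.0514). It belongs to a family of near copies that also differ between mouse strains, so its counts are uncertain.

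Podxl2, which encodes a sialomucin of the CD34 family, stood at 10.1, 17.5, 17 and 19.2 CPM in AD and at 6.19 to 9.35 in Null (1.03 ± 0.21, adjusted p = 0.149). Prep, which encodes a prolyl endopeptidase, stood at 135, 183, 186 and 194 CPM in AD and 115 to 126 in Null (0.52 ± 0.10, adjusted p = 0.0858). AD-630 was again the lowest AD library for both. The ubiquitin ligase gene Hecw2 differed by 0.80 ± 0.15 and Gbp8, one of the closely similar guanylate-binding protein genes, by 0.49 ± 0.10. Foxn3, a forkhead repressor gene, was the tightest of the set, at 89.7 to 96.6 CPM in AD and 76.7 to 78.3 in Null (0.25 ± 0.05, adjusted p = 0.0785). The others were Serinc5 (0.36), Nhsl1 (0.49), Mbtps1 (0.32), the thymocyte receptor gene Ephb6 (0.35) and the lymphoid factor gene Ikzf3 (0.38). Together the 11 genes lie on 9 chromosomes, and Ikzf3 is the 1 of them on chromosome 11, 28.9 Mb from Trp53.

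AD-630 was the lowest AD library for 10 of the 11 genes. Averaged over the 11, the AD libraries stood 0.31 (AD-630), 0.63, 0.60 and 0.58 above the irradiated Null mean on the log2 scale. The Null libraries spanned -0.17 (Null-604) to 0.11, RP 0.026 to 0.181 and Het 0.185 to 0.275. The 3 unirradiated AD libraries split too, at 0.148 in AD-700 and 0.435 and 0.53 in AD-701 and AD-702 above the unirradiated Null mean. AD-700 was the lowest of them for 10 of the 11 genes. Among unirradiated Het libraries, Het-703 stood at 0.455 and was the highest for all 11 genes, while Het-697 and Het-855 stood at -0.03 and 0.0087. Het-703 thus lay between AD-701 and AD-702. The genes had been chosen for being higher in AD, and the split was not tested.

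H2-Q1 showed the split in unirradiated thymus, at 4.75, 4.84 and 4.75 log2 CPM in AD-701, AD-702 and Het-703 and at 3.85 to 4.16 in the other 5 libraries, AD-700 among them. The labels gave no litter, cage or date for these animals, and the part of such factors in the split was not tested.

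**Figure D5:**
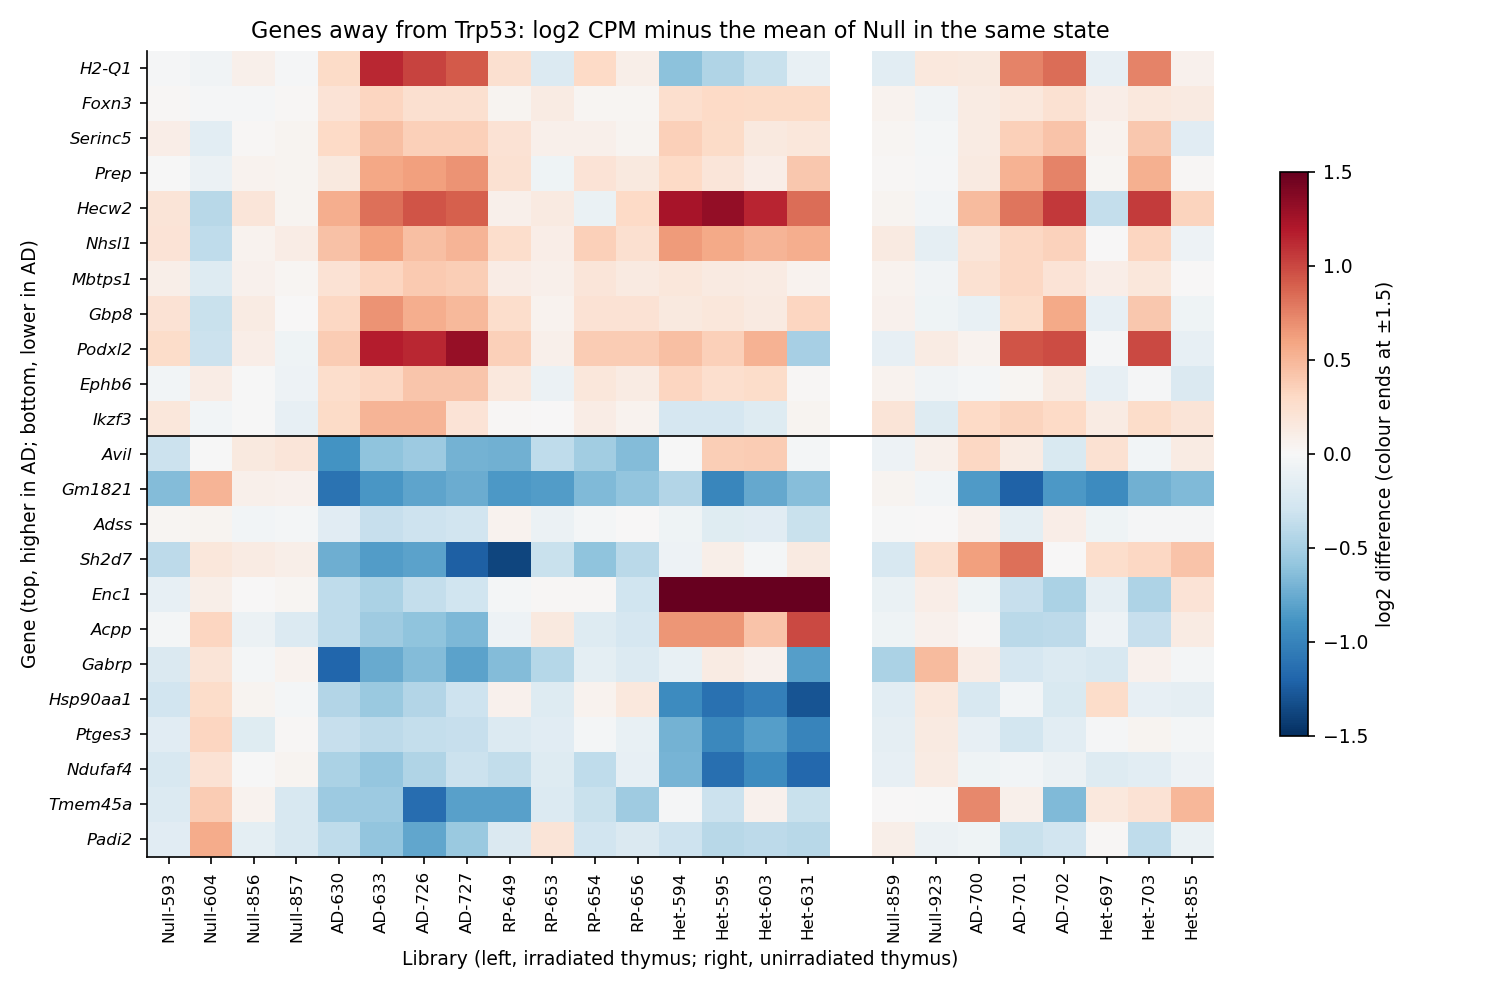
Log2 CPM minus the mean of Null in the same state (colour, ending at ±1.5) for 23 genes outside the 10 Mb window (y axis) in each irradiated and unirradiated thymus library (x axis). Among the upper 11 genes AD-630 and AD-700 are paler than the other AD libraries and Het-703 is darker than the other unirradiated Het libraries.

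The 12 genes that were lower in AD with the lowest p were less uneven between AD libraries. Averaged over them, AD-630, AD-633, AD-726 and AD-727 stood at -0.59, -0.59, -0.60 and -0.59 against the Null mean. The Null libraries spread from -0.23 (Null-593) to 0.26 (Null-604), and Null-604 was the highest Null library for 11 of the 12. Gm1821, a transcribed processed pseudogene (chromosome 14, 46084028 to 46085000), stood at 3.51, 4.15, 4.41 and 4.55 CPM in AD and at 4.85, 11, 8.07 and 8 CPM in Null. Null-593 was closest to AD (-0.94 ± 0.19, adjusted p = 0.129). In unirradiated thymus it was the 1 gene of these 23 that was called (-0.98, adjusted p = 0.0417). RP and Het stood at -0.80 and -0.76 against the shared Null libraries. As a processed pseudogene it may share reads with its parent gene.

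Avil, an actin-bundling protein gene, and Sh2d7, an adaptor gene, both known from tuft cells, were also in the lower set. Avil stood at 5.51, 6.76, 7.05 and 6.30 CPM in AD and at 8.25, 10.3, 11.5 and 11.7 in Null (-0.70 ± 0.14, adjusted p = 0.102), and Sh2d7 at 1.12 to 1.59 and 2.04 to 3.03 (-0.94 ± 0.21). In unirradiated thymus they differed by 0.08 and 0.52, with the other sign. The chaperone gene Hsp90aa1 stood at 547, 504, 550 and 597 CPM in AD and at 608, 901, 767 and 728 in Null (-0.45 ± 0.10, adjusted p = 0.212), and its co-chaperone gene Ptges3 differed by -0.37 ± 0.09. Het was lower still for both, at -1.10 and -0.88. Enc1, an actin-binding p53-responsive gene, was lower in AD (-0.38 ± 0.09) and higher in Het (1.94) than in Null. The rest were Adss (-0.28), Acpp (-0.56), Gabrp (-0.86), Ndufaf4 (-0.47), Tmem45a (-0.78) and Padi2 (-0.61, and -0.39 without Null-604, which stood far above the other Null libraries for it).

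Of these 23 genes, 19 had the same sign in unirradiated thymus (82.6%, against 55.8% of all tested genes outside the window). They were 11 of the 11 higher genes and 8 of the 12 lower ones. In that comparison 6 of the 23 had an unadjusted p under 0.05 (7.69% of all genes did), with 3 AD and 2 Null libraries. The test of the difference between the irradiated and unirradiated contrasts called 0 of 23605 genes by edgeR, with 972 at an unadjusted p under 0.05 (4.12%). Sh2d7 differed between the contrasts by -1.46 (unadjusted p = 0.000303 and adjusted p = 0.999), the largest such value among the 23.

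Leaving out a library changed which shifts were called. Without AD-727, the library with hepatocyte RNA, 4 genes were called and 0 outside the window (1672 at an unadjusted p under 0.05), and without Null-604, the library with high Gzma, the numbers were 4, 0 and 1320. Without both, again 4 genes were called (Trp53, Ybx2, Nlrp1a and Nlrp1c-ps) and 0 outside the window (1268 over all genes at an unadjusted p under 0.05), and H2-Q1 stood at 0.84, Prep at 0.44 and Podxl2 at 0.83. Other libraries lowered the counts as well. Leaving out AD-633 gave 6 calls, 0 outside the window and 1263 genes at an unadjusted p under 0.05. Leaving out AD-726 gave 4, 0 and 1312. Without AD-630 the count was 27 (0.119%), with 19 outside the window, among them H2-Q1 (1.03 ± 0.12, adjusted p = 0.000523), Prep (0.62 ± 0.08) and Podxl2 (1.19 ± 0.19). Without Null-593 it was 22 (0.0975%), with 14 outside. Serinc5 and Gbp8 were among the genes outside the window that were called in both of these fits. Without AD-727, Null-604 and AD-630 together, 13 genes were called, 8 of them outside the window, among them H2-Q1 (1.06), Prep (0.57), Gbp8, Gse1, Prr12, Gm10499 and Gm14085. AD-630 was left out because it stood apart for these same genes, so calls made without it are no independent support. Null-593 was on average the Null library closest to AD, at 0.11 for the 11 higher genes and -0.23 for the 12 lower ones. Calls made without Null-593 are therefore no independent support either. With Xist as a covariate for sex, 4 genes outside the window were called, among them H2-Q1, Prep and Gm15726.

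Among gene lists, heat shock genes had one of the lowest medians. Of 18 tested, 11 had an unadjusted p under 0.05 and a lower level in AD, which 3.83% of all genes had, 0 were called, and the median was -0.30. It was -0.23 without Null-604 and -0.29 without both Null-604 and AD-727. Averaged over the list, AD libraries stood 0.15 to 0.40 below the Null mean and Null-593 stood 0.36 below it, so 1 Null library lay within the AD range. The mitochondrial chaperone gene Hspd1 differed by -0.39 ± 0.11 and Stip1, an Hsp90 co-chaperone gene, by -0.28 ± 0.08. The Het median was -0.54.

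Ribosome biogenesis and Myc target genes were below 0 in 31 of 31, as were 11505 of all 22206 genes, with a median of -0.26. An unadjusted p under 0.05 was found for 11 of them, against 3.83% of all genes on the lower side. That median rested on 1 library: it was -0.02 without Null-604, which stood 0.55 above the Null mean and was the highest Null library for 30 of the 31 genes. Replication genes went from -0.12 to -0.03 without Null-604 and the respiratory chain from -0.08 to -0.05. The respiratory chain median was -0.13 without AD-727 and -0.09 without both libraries. Hepatocyte markers had a median of 2.24 with all libraries and -0.27 without AD-727, and genes of the PPAR pathway of fat metabolism went from 0.04 to -0.13 without it. Fabp1, a fatty acid binding protein of liver, stood at 15.4 CPM in AD-727 and at 0.846 to 1.40 in the other AD libraries.

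Thymocyte genes were slightly higher in AD in some lists but not in all. The general list had 10 of 12 genes above 0 (median 0.09), the mature list 9 of 14 (0.05) and the double-negative list 4 of 9 (-0.09). Of 12 double-positive markers 11 were above 0, with a median of 0.18 that was 0.08 without Null-604. The double-positive median was 0.11 in RP and 0.08 in Het against the same Null libraries. The coreceptor gene Cd4 stood at 772, 779, 791 and 796 CPM in AD and at 705, 579, 711 and 685 in Null, without overlap and without a call (0.23 ± 0.08, adjusted p = 0.501). The T cell factor gene Bcl11b differed by 0.14 ± 0.05 in the same direction. B and plasma cell genes lay lower, in 20 of 21, with a median of -0.37. It was -0.19 without Null-604, -0.44 without AD-727 and -0.31 without both. Against the same Null libraries the median was -0.36 in RP and -0.29 in Het, and in unirradiated AD thymus it was 0.22. Other leukocyte lists were mostly below 0 as well, with 15 of 16 macrophage genes (median -0.12), 13 of 14 cytotoxic cell genes (-0.21), 10 of 12 dendritic cell genes (-0.11) and 12 of 14 neutrophil genes (-0.10). Without Null-604 these medians were -0.04, -0.15, -0.07 and -0.02. For RP against the same Null libraries they were -0.16, -0.15, -0.18 and -0.26, and for Het 0.33, 0.03, 0.01 and 0.84. The B and plasma cell markers summed to 1263 to 1466 in AD and 1371 to 1695 CPM in Null. The groups overlapped (exact permutation test, two-sided p = 0.0857, n = 4 and 4, where the smallest possible p is 0.0286). The hepatocyte sum gave p = 0.771 in the same exact permutation test. Null-604 stood 0.35 above the Null mean of the B cell list and 0.31 below that of the double-positive list. The part of cell composition in the small shifts was not tested.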

How the data were processed

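RNA of 42 mouse tissue libraries was sequenced, and the deposited files hold raw read counts per Ensembl gene for each library, with no normalization by the authors. STAR 2.6.0b, DESeq2 (no version) and the GRCm38 build are named, per the submitters' processing notes. The counting tool, annotation release and strand setting are not given in the sources used here. Of 49585 gene identifiers, 49326 were matched to GENCODE M21 symbols and positions, and 259 were not.

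The main test was edgeR 4.0.16 (R 4.3.3; TMM scaling, filterByExpr, robust quasi-likelihood fit) on the 16 irradiated thymus libraries, which shared 1 estimate of the spread, with the contrast AD minus Null. Adjusted p-values are Benjamini-Hochberg over all tested genes, and called means an adjusted p under 0.05. Log2 values come from that fit, and CPM values use TMM-scaled library sizes. Non-overlap means that all AD libraries lay above or below all Null libraries. Unirradiated thymus (3 AD, 2 Null and 3 Het libraries of other animals, 27828884 to 31944233 counts) was fitted alone, and the interaction over 24 thymus libraries. The hepatocyte sum and the B and plasma cell sum were compared with exact permutation tests, and the other marker sums were not tested. Alternatives were DESeq2 1.42.0, RLE scaling, no filter, only the 2 groups, an Xist covariate, each library left out, and, chosen after seeing the data, AD-727 with Null-604 and both with AD-630. The scripts were tested on simulated data.

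Named genes were the called genes, the 15 lowest p-values within 10 Mb of Trp53, outside it the 12 lowest p-values in each direction among genes without overlap and with a mean log2 CPM of at least 1, genes outside it that were called in at least 2 of the fits leaving out 1 library, 18 genes of the p53 lists, and up to 4 of each other list. Ndrg1, the list gene that DESeq2 called, was singled out after its value was seen. A gene that the rule named is not reported here; it stayed in every fit and in the counts over all genes. The members and lists were chosen with earlier results of these data known. Promoter windows (250 bases before to 50 after each start) are RefSeq's, GRCm38.p6. Counts of 1 library are PCR-amplified reads, so intervals on them cover counting error only.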

Additional observations from a re-analysis of the deposited data

Results flagged for a closer look

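Of 152 groups of 4 libraries tested, 14 had an end library whose gap to its neighbour was over Dixon's 95% critical share of the whole range, where chance flags about 1 in 20 groups. Marker sums were among them. Null-604 stood at 698.1 CPM for natural killer and cytotoxic cell markers (113.6 to 126.2 in the other Null libraries) and at 878.7 for dendritic cell markers (933.5 to 936.9). AD-727 stood at 514.2 CPM for hepatocyte markers (35.47 to 48.35 in the other AD libraries) and at 1750 for adipocyte markers (up to 973.5). Adipocyte sums in Null ran from 530 to 1999 CPM, with Null-856 above AD-727.

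AD-630 stood apart from the other AD libraries for 4 genes, on the log2 CPM scale. It was low for Prep at 7.073 (7.512 to 7.603 in the others), for the death gene Bbc3 at 1.853 (2.743 to 2.838) and for Mprip, a myosin phosphatase partner, at 8.136 (8.446 to 8.488). It was high for the death receptor gene Fas at 5.836 (5.639 to 5.67).

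Null-604 stood apart from the other Null libraries for Padi2 at 4.711 (3.914 to 4.011), for Mdm2 at 7.096 (7.156 to 7.16), for Tigar, a sugar phosphatase gene induced by p53, at 2.924 (2.826 to 2.842), and for Nlrp1c-ps at -3.333, where its 1 read set it apart from 3 libraries without any (-3.922). Null-593 was low for Trim16 at 1.723 (3.438 to 3.728 in the other Null libraries) and for Sh2d7 at 1.074 (1.553 to 1.63).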

How the results depend on the processing

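The counts of 6 called genes and 0 outside the window were 97 and 86 with DESeq2, 10 and 4 with the Xist covariate, 15 and 9 without a filter, and 13 and 8 without AD-727, Null-604 and AD-630. Leaving out 1 library gave 4 to 27 and 0 to 19, with 27 without AD-630 and 22 without Null-593. Of the 6 genes, DESeq2 called 5 and gave Gucy2e no adjusted p. Windows of 5 or 20 Mb, setting all of chromosome 11 apart, and adjusting over the genes outside the window alone (lowest adjusted p = 0.17) left 0 calls outside. Leaving out 1 unirradiated library moved its 15 calls to 7 to 29 (27 without AD-700, 7 without AD-701, 29 without AD-702, 8 without Null-923). The interaction called 1 gene, Gm14150, with only AD and Null libraries.

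The apoptosis list's median was -0.050 without AD-727 and Null-604 and -0.035 without AD-630 as well. Leaving out 1 library gave -0.12 to -0.043 for it, -0.032 to 0.033 for the feedback list, -0.34 (without AD-727) to 0.95 for the log2 ratio of hepatocyte marker sums and -0.27 to -0.17 for that of B cell sums.

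Genes near 0 changed sign. Without AD-727, Null-604 and AD-630, Mdm2 came to -0.0015, Fas to -0.026, Sesn2 to 0.079 and Lpin1 to -0.027; without AD-727 and Null-604, Lpin1 came to -0.055. Leaving out 1 library gave -0.043 to 0.033 for Ccng1, -0.21 to 0.057 for Sesn2 and -0.14 to 0.0089 for Aen. The cause was not tested. No paired analysis was possible because the AD and Null groups share no animal number. With 4 animals a group, small shifts and genes with few counts are uncertain.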

Other observations

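Tuft cells are chemosensory cells of the thymic medulla, and Avil and Sh2d7 are 2 of their known markers. A list of 20 other tuft cell genes was written after these 2 had been seen, so it supports nothing and is given as values only. Of the 19 tested, 16 were lower in AD than in Null, with a median log2 difference of -0.36 against -0.01 over all genes. Bmx (-0.69), Rgs13 (-0.75), Dclk1 (-0.39), Hpgds (-0.27), Sh2d6 (-0.65) and Chat (-0.96) had an unadjusted p under 0.05 and were lower, Gfi1b (0.85) was higher, and edgeR called 0. Over all genes 3.83% were lower and 4.16% higher at that threshold. Lrmp, an abundant gene of the list, was higher in AD without overlap (0.11 ± 0.06). The summed CPM of the list, Avil and Sh2d7 left out, overlapped, at 576 to 620 in AD and 567 to 623 in Null. Pou2f3, the master regulator of these cells, differed by -0.30 (95% interval -0.73 to 0.14). Rgs13 was the only lower gene of the 19 whose groups did not overlap, at 1.14 to 1.41 CPM in AD and 1.46 to 2.73 in Null. Of all genes, 2.44% were lower and 2.85% higher in AD without overlap. Markers of medullary epithelium were below 0 in 11 of 12, with a median of -0.20. Their part in these values was not tested.

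Low reads of the other sex's marker were present in several libraries. Ddx3y had 332 counts in Null-604 and 160 in AD-630, both high in Xist, against 14 in Null-593 and 54 in AD-633. Xist had 1184 counts in AD-727, 1016 in Null-857 and 757 in AD-726, all high in Ddx3y, against 98 in Null-856.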
